A study of Mus musculus with 18 samples.

Results

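The STAT genes encode the transcription factors that carry signals from cytokine receptors to the nucleus. The 6 described here, Stat2, Stat3, Stat4, Stat5a, Stat5b and Stat6, were taken by gene name from a table of 56748 genes, in all 18 libraries. Each of the 6 was among the 15450 genes with enough counts to be tested. RNA was sequenced from macrophages grown from the bone marrow of C57BL/6J mice, either wild type or TLR4 knockout, fed with supernatant of L929 cells, which secrete the macrophage growth factor M-CSF. On day 7 the cells of each genotype received water, GM (GlcNAc-MurNAc, a disaccharide of bacterial peptidoglycan) or MDP for 24 h in serum-free IMDM, so that 6 groups of 3 libraries were formed. MDP is given in the labels as MurNAc-D-Ala-L-Gln. The sensor NOD2 is known to respond to MurNAc-L-Ala-D-isoGln. Which of these was added cannot be settled from the files. Doses were not stated, so differences between GM and MDP are differences between these 2 treatments as given. TLR4 is the receptor for bacterial lipopolysaccharide, and the comparisons ask how far each response of the STAT genes differed between cells with and without it. The labels call the libraries of a group biological replicates and name no animals or cultures. The p-values thus rest on the spread among these libraries, part of which may be technical.

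A STAT protein waits in the cytoplasm until a Janus kinase bound to an activated cytokine receptor phosphorylates it on a tyrosine, after which it pairs with another STAT and enters the nucleus. Each member is known for its own set of receptors. STAT2 joins IRF9 in ISGF3, the complex that switches on antiviral genes after type I interferon. STAT3 serves IL-6 and IL-10, STAT4 serves IL-12 and type I interferon, the closely related STAT5A and STAT5B serve GM-CSF, IL-3 and IL-2, and STAT6 serves IL-4 and IL-13 and is known for alternative activation of macrophages. Phosphorylation was not measured, and the values below are RNA levels.

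The promoters of 4 members are shown because Stat2, Stat3 and Stat4 were the genes that passed a test against water and Stat5a differed between GM and MDP. All 6 members matched the RefSeq promoter table (GRCm38.p6, 300 bases a window, 250 before the start and 50 from it), with 9 windows in all. Capitals mark matches to motifs searched on both strands. The 4 motifs searched were GAS (TTC and GAA with any 3 bases between), the same 2 triplets with 4 bases between, an ISRE-like motif (GAAA and GAAA with 2 bases between) and the kB consensus. The Stat2 window (chr10:128270248-128270547, plus strand) holds an ISRE-like match on the minus strand at −222 to −213 from the start, followed by a match to the 4-base spacing at −210 to −201. The downstream window of Stat4 (chr1:52007990-52008289, plus strand) holds an ISRE-like match at −97 to −88 from its start. The downstream window of Stat5a (chr11:100860234-100860533, plus strand) holds a kB match, found on both strands, at −234 to −225 from its start. The Stat3 window (chr11:100939491-100939790, minus strand) holds none of the 4.
Stat2: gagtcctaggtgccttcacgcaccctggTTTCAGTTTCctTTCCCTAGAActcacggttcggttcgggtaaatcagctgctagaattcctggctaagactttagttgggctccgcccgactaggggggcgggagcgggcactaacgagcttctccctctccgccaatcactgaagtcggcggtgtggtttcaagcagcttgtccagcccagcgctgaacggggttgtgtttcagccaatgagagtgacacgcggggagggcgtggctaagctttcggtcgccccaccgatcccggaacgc
Stat3: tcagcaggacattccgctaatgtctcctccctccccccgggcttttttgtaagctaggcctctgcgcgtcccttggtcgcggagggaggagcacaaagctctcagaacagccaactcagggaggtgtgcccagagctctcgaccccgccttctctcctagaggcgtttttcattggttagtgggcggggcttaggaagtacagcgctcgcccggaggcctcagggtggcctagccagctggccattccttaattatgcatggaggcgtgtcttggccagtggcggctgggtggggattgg
Stat4: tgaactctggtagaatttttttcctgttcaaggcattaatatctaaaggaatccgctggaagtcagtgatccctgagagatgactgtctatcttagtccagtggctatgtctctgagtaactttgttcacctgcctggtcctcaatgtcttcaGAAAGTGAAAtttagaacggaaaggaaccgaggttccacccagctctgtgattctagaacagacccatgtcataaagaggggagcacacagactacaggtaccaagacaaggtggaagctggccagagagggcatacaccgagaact
Stat5a: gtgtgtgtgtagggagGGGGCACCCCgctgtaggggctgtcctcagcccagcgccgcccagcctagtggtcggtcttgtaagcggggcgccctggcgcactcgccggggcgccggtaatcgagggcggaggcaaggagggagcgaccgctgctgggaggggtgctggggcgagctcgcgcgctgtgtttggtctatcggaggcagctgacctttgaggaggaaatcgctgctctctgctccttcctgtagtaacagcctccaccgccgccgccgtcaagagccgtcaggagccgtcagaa
Of 32851 windows of this length, 3.44% held an ISRE-like match, 6.95% the 4-base spacing, 8.3% GAS and 8.46% the kB consensus. The windows of Stat5b and Stat6, and the other windows of Stat4 and Stat5a, held none of these letters. A match describes letters in a window, and neither binding nor use of a start site was measured. The coordinates are of an older build than that of the counts (GRCm39), and no position was carried from one to the other.

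Total counts ran from 15532973 to 21128507 per library. Tlr4 was lower in every knockout library (36.5 to 52.9 CPM, counts scaled to library size) than in every wild-type library (117 to 229.5 CPM), and the labels do not describe the knockout allele. The 7 macrophage markers summed to 24039 to 32427 CPM in every library, with none at 0. The spread between libraries was unequal: libraries given water or GM in wild type had biological coefficients of variation of 35.4% and 27.6%, and the other 4 groups 5.71% to 8.09%. Wild-type water replicate 3 lay apart from the other libraries of its group (43.5 on the second principal component against 5.54 and 5.81), and calls and counts that change without it are also given without it. Stromal markers also differed with genotype and treatment. Wild-type sums over 11 genes were 85.4 to 370.5 CPM for water, 83.5 to 120.1 for GM and 19.998 to 27.3 for MDP, against 5.42 to 11.8 for all knockout libraries. In wild-type water the sums were 370.5, 345 and 85.4 CPM in replicates 1, 2 and 3. Fits without replicate 3 thus rest on the water libraries with the highest stromal sums. The part of stromal markers in the results below was not tested. Neutrophil markers (9 genes) summed to 7.06 to 79.4 CPM in wild type and 77.3 to 284 CPM in knockout, and their part was not tested either.

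Compared on the authors' FPKM scale, which divides by gene length, Stat6 was the most abundant member in 18 of 18 libraries, at 62.4 to 73.7 FPKM (median 66.6). The middle of the order was held by Stat2 (9.75 to 35.6, median 19.9 FPKM), Stat3 (14.5 to 23.0, median 18.9) and Stat5b (15.3 to 24.5, median 17.1). Stat5a was lower (6.39 to 12.9, median 7.07 FPKM). Stat4 had the lowest level in 13 of 18 libraries and the widest range, from 0.789 to 18.9 FPKM (median 3.82). Its highest CPM was 23.8 times its lowest, or 8.92 times without wild-type water replicate 3, its lowest library. The same ratio was 3.67 for Stat2, 2.05 for Stat5a, 1.62 for Stat5b, 1.59 for Stat3 and 1.20 for Stat6. Without that library it was 2.46 for Stat2, 1.48 for Stat5b and 1.18 for Stat6, and unchanged for Stat5a and Stat3.

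The order of the means below Stat6 differed between groups. In wild-type water it ran Stat6, Stat5b, Stat3, Stat2, Stat5a, Stat4, with means of 66.6, 18.4, 16.7, 15.5, 7.39 and 1.88 FPKM. Stat5b, Stat3 and Stat2 could not be ordered there, since each overlapped the next over the 3 libraries. Their order of means rested on replicate 3 (Stat5b 24.5, Stat2 9.75 FPKM). In replicates 1 and 2 Stat2 (16.8 and 19.9 FPKM) was already next to Stat6. It lay there above Stat3 (15.5 and 15.2) and Stat5b (15.3 and 15.3). In knockout water Stat2 (17.6 FPKM) was next to Stat6 too, overlapping Stat5b (17.1). In wild-type MDP Stat2 was next to Stat6 (31.7 FPKM against 65.5), ahead of Stat3 (22.5), and no 2 of these 3 overlapped. Stat4, at 17.3 FPKM, then overlapped Stat5b at 16.3, and both lay above Stat5a at 7.01. In wild-type GM Stat4 (11.05 FPKM) overlapped Stat5a (11.4), and Stat2 (25.8), Stat3 (21.8) and Stat5b (20.2) overlapped in turn. In knockout cells Stat4 was last in all 3 groups, at 2.45 FPKM in water, 2.95 in GM and 5.65 in MDP. Stat4 was above Stat5a in 5 of 18 libraries.

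**Figure D1:**
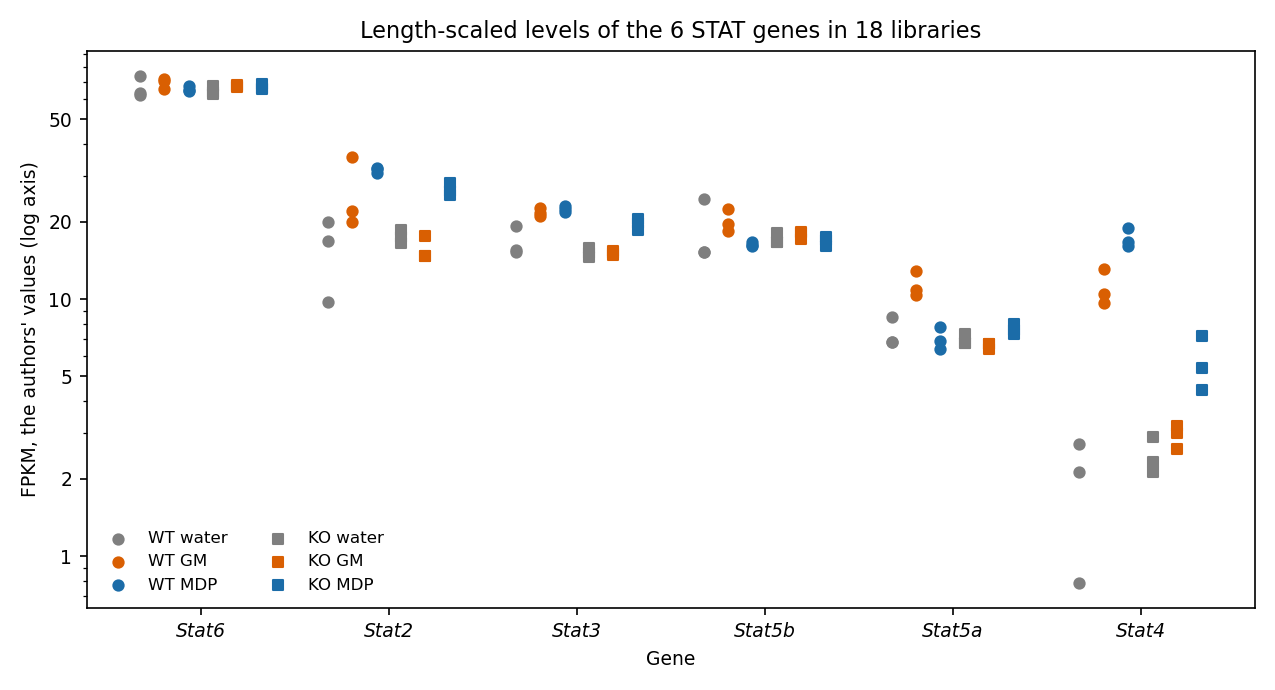
Level of each STAT gene in the 18 libraries, as the authors' FPKM on a log axis, by gene. Points are libraries, with circles for wild type (WT) and squares for knockout (KO) and colours for treatments. Stat6 lies above all other members in every library, and Stat4 spans 0.789 to 18.9 FPKM.

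Each comparison was tested with edgeR's quasi-likelihood F test on the libraries compared, with p-values adjusted by Benjamini-Hochberg over all 15450 genes and a threshold of 0.05. GM and MDP were compared with the same water libraries, so those comparisons are not independent. With MDP in knockout cells 3 of the 6 STAT genes rose and none fell, against 19.2% of all tested genes called in either direction and 9.16% called higher. In that comparison 4 of 6 had groups that did not overlap, against 32.8% of all genes. With MDP in wild type 2 of 6 rose and none fell, against 8.34% called in either direction and 4.61% higher, and 3 of 6 did not overlap, against 37.2%. With GM in knockout 0 of 6 passed, against 7.84% of all genes, and 1 of 6 did not overlap, against 23.4%. In that comparison 2 of 6 had an unadjusted p under 0.05, against 19.3% of all genes. With GM in wild type 0 of 6 passed as well, against 0.608% of all genes, and 3 of 6 had an unadjusted p under 0.05, against 6.31% of all genes. There 4 of 6 members had groups that did not overlap, against 12.0% of all tested genes.

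Of GM against MDP, 1 of 6 was higher with GM and 1 lower in wild type, against 9.99% of all genes, 5.59% higher and 4.41% lower, and 3 of 6 did not overlap, against 36.7%. In knockout 4 of 6 were lower with GM and none higher, against 16.4% of all genes and 8.31% lower, and 4 of 6 did not overlap, against 31.5%. In water, 0 of 6 differed between knockout and wild type, against 14.6% of all genes, and 0 of 6 did not overlap, against 44.4%. None of the 6 had an unadjusted p under 0.05 there, against 32.6% of all genes. The MDP response differed between genotypes for 1 of 6, larger in wild type, against 7.97% of all genes in either direction and 4.63% in that direction. The GM response did so for 0 of 6, against 0.939% of all genes, and 4 of 6 had an unadjusted p under 0.05, against 7.83% of all genes. The median log2 fold change of the 6 was 0.52 for GM and 0.20 for MDP in wild type and 0.02 for GM and 0.26 for MDP in knockout, beside −0.03, −0.04, 0.00 and −0.01 over all genes tested.

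**Figure D2:**
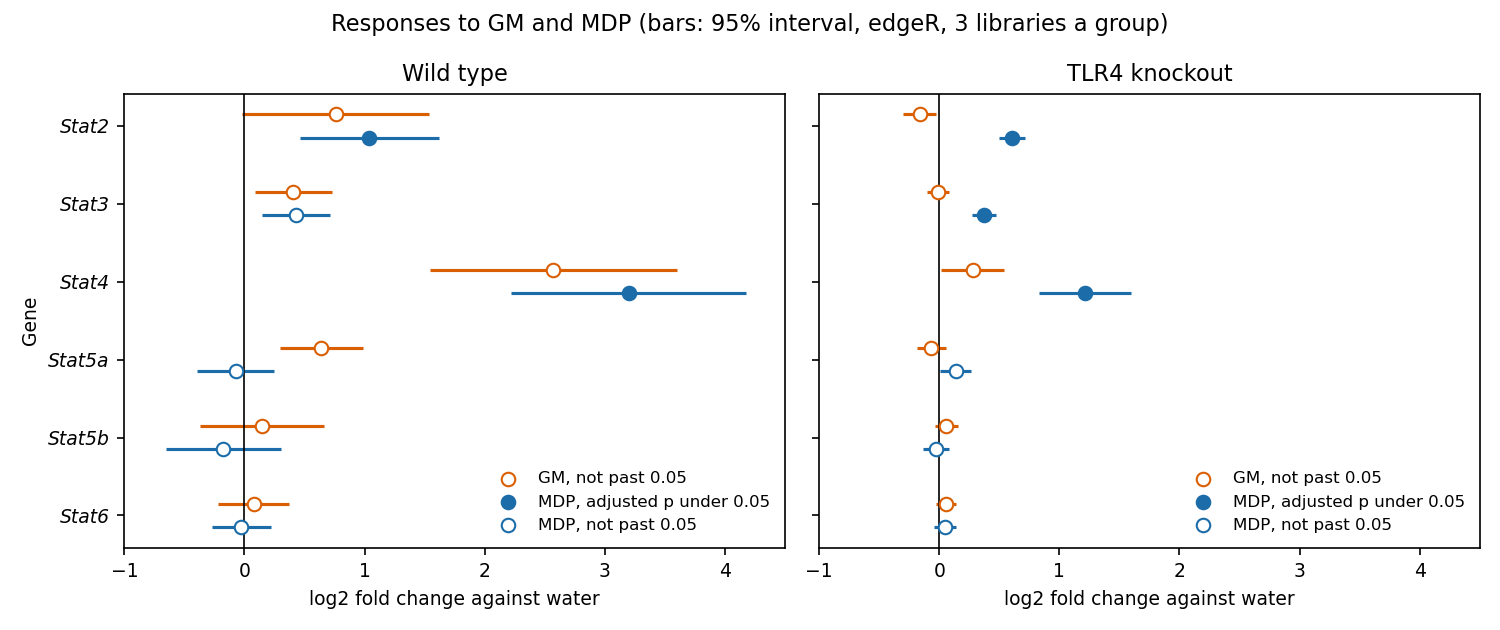
log2 fold changes against water for the 6 STAT genes, in wild type (left) and TLR4 knockout (right), GM in orange and MDP in blue. Bars are 95% intervals of edgeR's fit, 3 libraries a group, and filled points passed an adjusted p of 0.05. MDP has filled points for Stat2 and Stat4 in wild type and for Stat2, Stat3 and Stat4 in knockout, and GM has none.

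Stat4 (ENSMUSG00000062939, GRCm39 chromosome 1, 52026307 to 52146348, plus strand) moved furthest among the members. STAT4 transmits IL-12 signals and is best known from T cells and natural killer cells. In wild-type water it stood at 10.5, 8.28 and 3.10 CPM in replicates 1 to 3. Wild-type GM libraries held 38.1, 51.5 and 41.0 CPM, and wild-type MDP libraries 65.2, 73.9 and 62.5 CPM. All 3 groups were separate, with MDP above GM and GM above water. In knockout cells it was at 8.29, 9.01 and 11.3 CPM in water, 11.8, 10.2 and 12.5 in GM and 17.2, 27.9 and 20.9 in MDP. GM overlapped water there, and MDP lay above both.

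**Figure D3:**
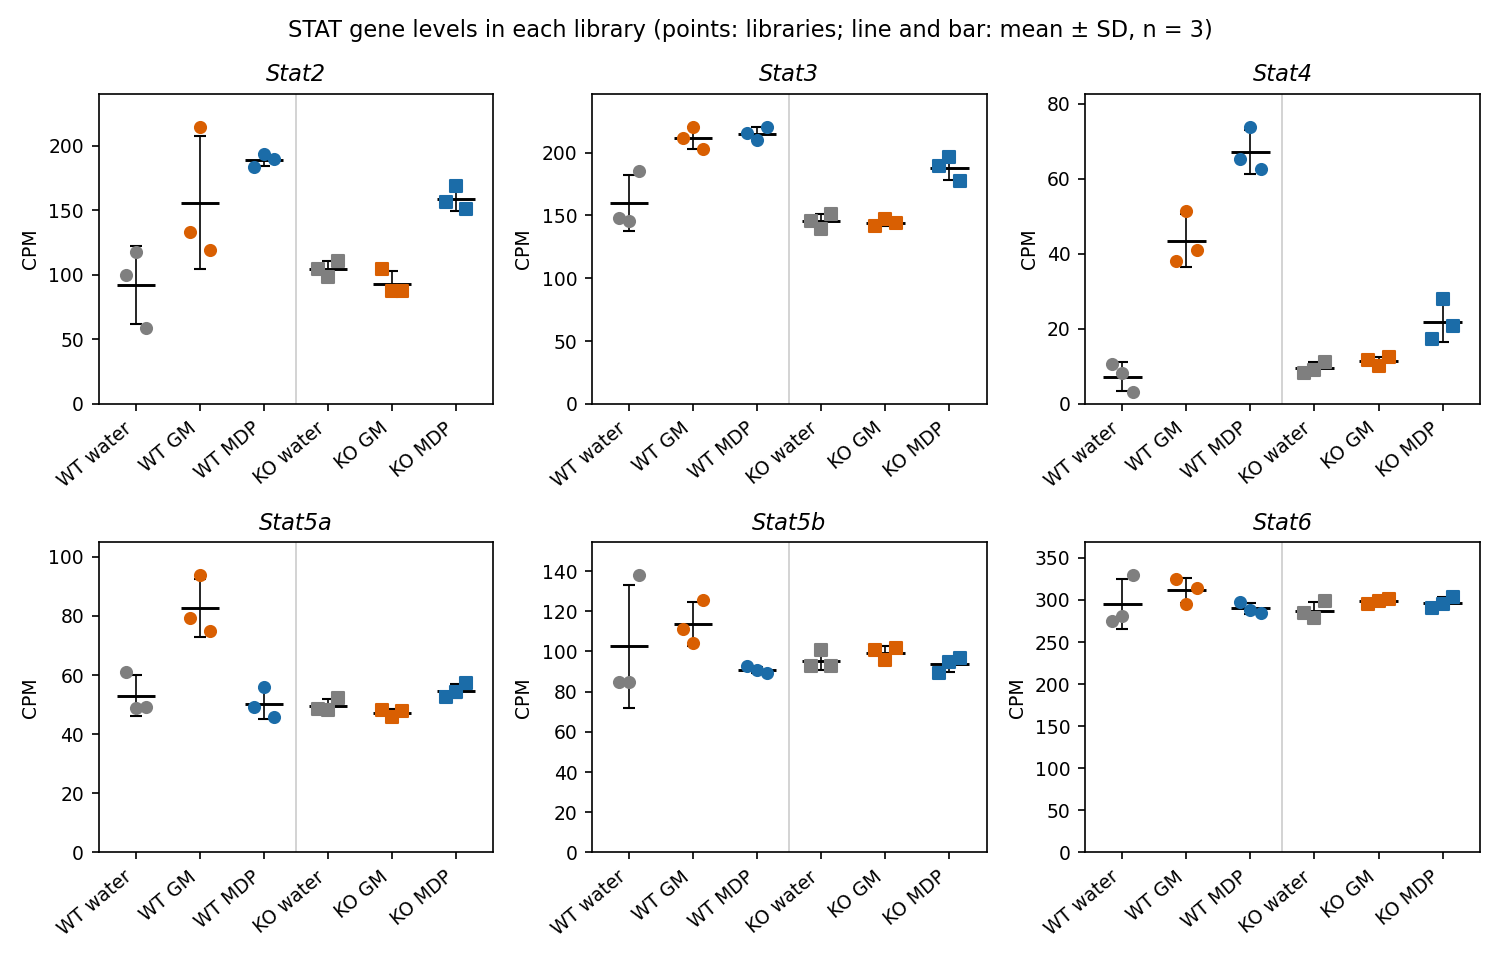
CPM of each STAT gene in every library, by group. Points are libraries, lines the mean and bars the SD (n = 3), and every axis starts at 0. Stat4 is at 3.10 to 10.5 CPM in wild-type water and 62.5 to 73.9 CPM in wild-type MDP, and Stat6 stays between 275 and 329 CPM.

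With MDP, Stat4 rose 9.18-fold in wild type, from 7.31 ± 3.82 to 67.2 ± 5.94 CPM (SD, n = 3), a log2 fold change of 3.20 ± 0.41 (SE) with an edgeR adjusted p of 0.0079. In knockout it rose 2.32-fold, from 9.53 ± 1.57 to 22.0 ± 5.41 CPM, a log2 fold change of 1.22 ± 0.17 with an edgeR adjusted p of 0.00025. The rise was larger in wild type than in knockout, by 1.99 ± 0.47 on the log2 scale (95% interval 0.96 to 3.01, edgeR adjusted p = 0.026), a test of the difference itself. In wild type the call for MDP was narrowly lost without MDP replicate 1, 2 or 3 (edgeR adjusted p 0.051, 0.057 and 0.051), at log2 fold changes of 3.22, 3.12 and 3.25. The call for the difference between genotypes was lost without wild-type MDP replicate 1, 2 or 3 (adjusted p 0.053, 0.064 and 0.053), without knockout water replicate 2 or 3 (0.057 and 0.068) and without knockout MDP replicate 1 or 3 (0.069 and 0.066), in the same edgeR test. With no filter on low counts its edgeR adjusted p was 0.11.

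With GM, Stat4 was at 43.5 ± 7.05 CPM in wild type, a log2 difference from water of 2.57 ± 0.43 (SE; 95% interval 1.54 to 3.60) that did not pass the threshold (edgeR adjusted p = 0.082). Every GM library nevertheless lay above every water library. It passed without wild-type water replicate 3 (2.21, edgeR adjusted p = 0.0098), in 1 edgeR fit of all 18 libraries (adjusted p = 6.02e-05), with DESeq2 (6.7e-07) and with limma-voom given a spread for each group (0.010). In knockout GM it was at 11.5 ± 1.18 CPM, 0.28 ± 0.13 above water on the log2 scale (edgeR adjusted p = 0.23). The GM response in wild type exceeded that in knockout by 2.30 ± 0.47 on the log2 scale, just short of the threshold (edgeR adjusted p = 0.051). It passed without wild-type water replicate 1 (2.67, adjusted p = 0.026) and without replicate 3 (1.93, adjusted p = 0.000999), both in edgeR.

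GM and MDP were also compared directly. In wild type Stat4 was lower with GM by 0.63 ± 0.13 on the log2 scale (edgeR adjusted p = 0.029). In knockout it was lower with GM by 0.94 ± 0.16 (edgeR adjusted p = 0.00085). The wild-type call was lost without GM replicate 1 (edgeR adjusted p = 0.11) or MDP replicate 1, 2 or 3 (0.11, 0.13 and 0.094). The fit of all 18 libraries called neither (edgeR adjusted p 0.13 in wild type and 0.16 in knockout).

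Since STAT4 is known from lymphocytes, markers of other cell types were read in the same libraries. The 12 T and natural killer cell markers together summed to 3.95 to 13.2 CPM, with the highest library in wild-type water. Gzma and Prf1, which encode cytotoxic granule proteins, were at 0 in all 18 libraries, Eomes in 17 and Ncr1 in 16. The summed level of 7 dendritic cell markers, by contrast, was higher where Stat4 was higher. In wild type it was 90.9 to 199 CPM for water, 528 to 628 for GM and 725 to 802 for MDP. Knockout sums were 130.4 to 153 CPM for water, 164 to 204 for GM and 316 to 418 for MDP. Most of that sum was Ccr7, a chemokine receptor of migrating dendritic cells that macrophages can also express, at 63.4 to 742 CPM. The other 6 markers together gave, for wild type, 27.5 to 64.0 CPM (water), 45.2 to 68.0 (GM) and 50.2 to 59.6 (MDP), which overlap. For knockout they gave 16.8 to 17.6 CPM (water), 16.9 to 19.8 (GM) and 18.9 to 23.0 (MDP). These sums hold genes that ran in different directions. Flt3, a growth factor receptor of dendritic cell precursors, was ordered like Stat4 in wild type, with 0.443 to 3.38 CPM for water, 4.01 to 11.9 for GM and 13.0 to 17.9 for MDP. In knockout Flt3 gave 2.23 to 3.04 CPM (water), 3.17 to 4.63 (GM) and 4.598 to 5.42 (MDP). Clec9a ran the other way, with wild-type water libraries at 16.5 to 23.0 CPM and wild-type MDP libraries at 8.44 to 10.6, and knockout libraries at 9.28 to 10.7 (water) and 7.09 to 7.24 (MDP). Zbtb46 gave, in wild type, 3.87 to 21.8 CPM (water), 17.6 to 36.5 (GM) and 25.7 to 32.8 (MDP), and 3.73 to 10.3 CPM over all knockout libraries. Cd209a reached 22.2 CPM in wild-type water and at most 0.517 in wild-type MDP. Siglech was at 0 in 14 libraries and Xcr1 in 9. The part of dendritic cells in the level of Stat4 was not tested, and in bulk RNA fewer cells of a type and less RNA per cell cannot be told apart.

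**Figure D4:**
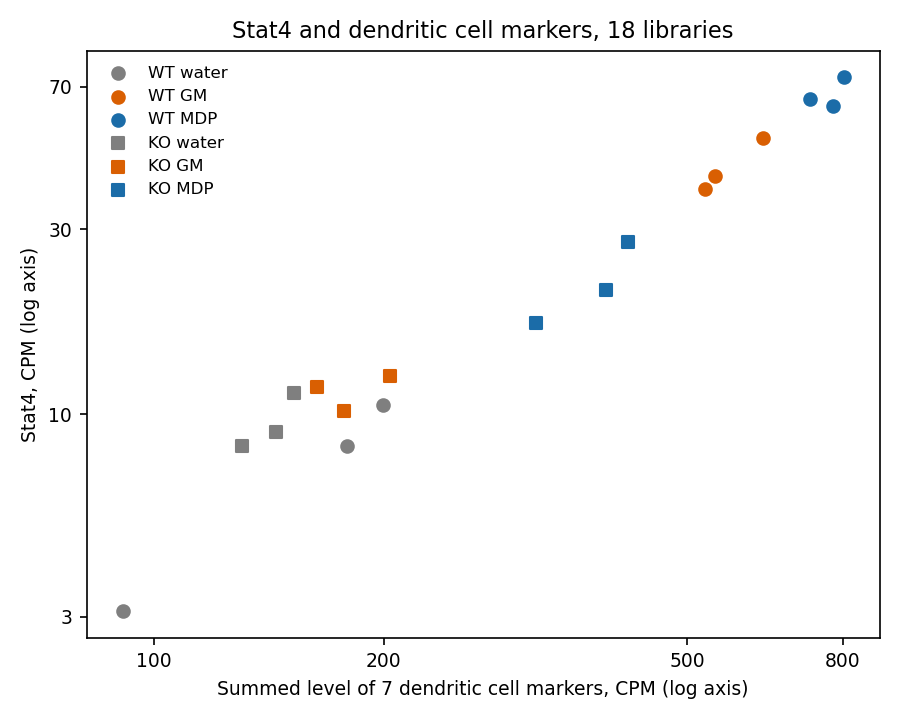
Stat4 against the summed level of 7 dendritic cell markers, both in CPM on log axes, 1 point a library (circles WT, squares KO, colours as in the key). Wild-type MDP libraries are at the upper right (Stat4 62.5 to 73.9 CPM, markers 725 to 802 CPM) and wild-type water replicate 3 at the lower left (3.10 and 90.9 CPM). Most of the sum is Ccr7, at 671 to 742 CPM in wild-type MDP.

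Receptor chains tied to STAT4 moved in both directions with treatment, whereas the listed targets that passed a test against water all fell. Il23r, the IL-23 receptor chain, rose in wild type with GM (4.70 ± 0.821 against 0.221 ± 0.143 CPM, edgeR adjusted p = 0.030) and with MDP (2.63 ± 0.724 CPM, 0.014), and in knockout with MDP (4.35 ± 0.352 against 1.55 ± 0.521 CPM, 1.0e-05). Il12rb2, the signalling chain of the IL-12 receptor, fell in knockout with MDP, from 26.0 ± 0.657 to 15.3 ± 1.61 CPM (edgeR adjusted p = 4.0e-08), and with GM, to 20.3 ± 1.84 CPM (log2 −0.36, 0.0050). In wild type its fall with MDP passed only without wild-type water replicate 3 (log2 −0.41, edgeR adjusted p = 0.00046). Only without that library, too, was it called lower in knockout than in wild-type water (log2 −0.88, edgeR adjusted p = 3.2e-12). The same fit called 3818 of all genes lower. Of 6 listed STAT4 targets 4 had enough counts to be tested. Of these, 0 rose and 1 fell with MDP in wild type, Furin, a protease, from 207 ± 24.2 to 113 ± 7.53 CPM (edgeR adjusted p = 0.0095). All 4 fell with MDP when wild-type water replicate 3 was left out. Among all genes 575 fell with MDP in wild type, or 2817 without that library. In knockout 0 of the 4 rose and 3 fell with GM, and 0 rose and 1 fell with MDP. There 654 of all genes fell with GM and 1548 with MDP. Il12b, which encodes the shared p40 chain of IL-12 and IL-23, rose from 3.19 ± 2.51 to 405 ± 162 CPM with GM and to 123 ± 9.65 with MDP in wild type (edgeR adjusted p 0.029 and 0.0071). In knockout it rose from 11.3 ± 1.32 to 16.9 ± 2.85 CPM with GM (log2 0.58, edgeR adjusted p = 0.0013) and to 201 ± 46.8 with MDP (0.00080).

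Stat2 (ENSMUSG00000040033, GRCm39 chromosome 10, 128106428 to 128128718, plus strand) was higher with MDP in both genotypes. Its wild-type water libraries stood at 99.7, 118 and 58.6 CPM, with replicate 3 the lowest of all 18. Wild-type GM gave 133, 215 and 119.7 CPM, and wild-type MDP 184, 193 and 190.1. Both treatments lay above water in every library, and the GM libraries were the most scattered. In knockout the levels were 104.5, 98.6 and 110.5 CPM in water, 104.7, 87.5 and 87.5 in GM and 157, 169 and 151 in MDP. The MDP libraries were separate from the others there, and GM overlapped water.

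In knockout Stat2 rose 1.52-fold with MDP, from 104.5 ± 5.96 to 159 ± 9.08 CPM, a log2 fold change of 0.61 ± 0.053 (edgeR adjusted p = 7.9e-12). The fit of all 18 libraries, which gives every group the same spread, did not call it (edgeR adjusted p = 0.21). In wild type it rose 2.05-fold with MDP, from 92.1 ± 30.4 to 189 ± 4.94 CPM, a log2 fold change of 1.04 ± 0.24 at the edge of the threshold (edgeR adjusted p = 0.049). That call was lost with other size factors (0.052), with no filter on low counts (0.068), without wild-type water replicate 1 or 2 (0.10 and 0.055) and without MDP replicate 1, 2 or 3 (0.16, 0.18 and 0.17), all edgeR adjusted p. The 2 genotypes did not differ detectably in this response (0.43 ± 0.26 on the log2 scale, 95% interval −0.14 to 1.01, edgeR adjusted p = 0.34). With GM Stat2 was at 156 ± 51.5 CPM in wild type (0.76 ± 0.32, adjusted p = 0.81) and 93.2 ± 9.90 in knockout (−0.16 ± 0.064, adjusted p = 0.15), neither past edgeR's threshold. Without knockout GM replicate 1 the latter fell by 0.25 (edgeR adjusted p = 0.00082). In knockout Stat2 was lower with GM than with MDP by 0.77 ± 0.062 on the log2 scale (edgeR adjusted p = 3.2e-09), which the fit of all 18 libraries did not call (0.12). In wild type that difference was 0.28 ± 0.21 in the same direction (edgeR adjusted p = 0.41), and 0.58 without GM replicate 2 (0.00092).

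Genes that ISGF3 is known to switch on rose with MDP in both genotypes. Of 20 listed and tested, 16 rose and 0 fell in wild type (median log2 fold change 2.44, beside −0.04 over all genes) and 20 rose in knockout (median 0.72, beside −0.01). Without wild-type water replicate 3 all 20 rose in wild type, with a median of 2.05. Among all genes 713 rose with MDP in wild type, or 2662 without that library, and 1415 rose in knockout. Ifit2, which binds foreign RNA, went from 18.8 ± 13.1 to 233 ± 33.4 CPM in wild type (log2 3.64 ± 0.59, edgeR adjusted p = 0.016). Irf7, which amplifies interferon production, went from 16.6 ± 8.45 to 176 ± 23.0 CPM (log2 3.41 ± 0.36, edgeR adjusted p = 0.0047). In knockout the largest rises of the list were in Mx2, Oasl1 and Ifi44, at log2 fold changes of 1.41, 1.21 and 1.20. The difference between genotypes passed for 11 of the 20, each larger in wild type, or for 16 without wild-type water replicate 3. It passed in that direction for 716 of all genes, or for 2174 without that library.

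With GM the list split by genotype. In wild type 6 of 20 rose (median log2 fold change 2.31), or 12 without wild-type water replicate 3, and in knockout 0 rose and 2 fell (median −0.26). Among all genes 94 rose with GM in wild type, or 231 without that library. In knockout 558 of all genes rose with GM and 654 fell. Oasl1, an interferon-induced inhibitor of Irf7 translation, went from 4.33 ± 1.18 to 59.4 ± 12.4 CPM in wild type (log2 3.78 ± 0.28, edgeR adjusted p = 0.0061), and Isg15, a ubiquitin-like modifier, from 7.89 ± 3.09 to 82.7 ± 10.7 CPM (log2 3.39 ± 0.29, edgeR adjusted p = 0.012). The 2 that fell in knockout were Oas2 (log2 −0.59) and Usp18 (−0.38), the latter also an inhibitor of the interferon receptor. The GM response was larger in wild type than in knockout for 12 of 20, by the test of that difference, or for 14 without wild-type water replicate 3. That was so for 143 of all genes, or for 452 without that library. Irf9, the DNA-binding partner of STAT2, was at 45.8 ± 14.3 CPM in wild-type water, 64.0 ± 22.4 in GM and 87.7 ± 4.32 in MDP, with no call (edgeR adjusted p = 0.056 for MDP). Without wild-type water replicate 3 it rose with MDP by 0.72 on the log2 scale (edgeR adjusted p = 7.6e-07). In knockout it rose with MDP from 65.6 ± 2.44 to 76.5 ± 4.09 CPM (log2 0.22, edgeR adjusted p = 0.0045).

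Stat3 (ENSMUSG00000004040, GRCm39 chromosome 11, 100775924 to 100830366, minus strand) varied over a narrower range. In wild-type water it was at 148, 146 and 186 CPM. Wild-type GM libraries held 211, 221 and 203 CPM and wild-type MDP libraries 215, 209.7 and 220.4, all above every water library. In knockout it was at 146, 139 and 151 CPM in water, 141, 147 and 144 in GM and 189, 197 and 178 in MDP. MDP stood clear of water there, and GM lay within the range of water.

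In knockout Stat3 rose 1.29-fold with MDP, from 145 ± 5.98 to 188 ± 9.48 CPM, a log2 fold change of 0.37 ± 0.050 (edgeR adjusted p = 2.0e-07). In wild type its log2 difference with MDP was of similar size, 0.43 ± 0.12, and did not pass (edgeR adjusted p = 0.078). Without wild-type water replicate 3, the highest of its group, it was 0.55 (edgeR adjusted p = 2.3e-07), and DESeq2 (0.026) and limma-voom (0.00903) also called it. The responses differed between genotypes by 0.06 ± 0.13 on the log2 scale (95% interval −0.23 to 0.34, edgeR adjusted p = 0.82). With GM the log2 difference was 0.40 ± 0.13 in wild type (edgeR adjusted p = 0.56) and −0.01 ± 0.044 in knockout (0.94). The fit of all 18 libraries called the former (edgeR adjusted p = 0.0071). The GM response differed between genotypes by 0.41 ± 0.13, not past the threshold (edgeR adjusted p = 0.34), and by 0.54 without wild-type water replicate 3 (0.0061). In knockout Stat3 was lower with GM than with MDP by 0.38 ± 0.048 (edgeR adjusted p = 3.2e-08), and in wild type the 2 treatments differed by 0.02 ± 0.081 (95% interval of GM minus MDP −0.21 to 0.16).

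Known targets of IL-10 and STAT3 moved mostly upward in knockout. Of 11 tested, 10 rose with MDP there (median log2 fold change 0.34) and 7 rose with GM (median 0.20), though Stat3 itself did not pass with GM. Among all genes 1415 rose with MDP in knockout and 558 with GM. With GM Hmox1, which breaks down haem, went from 387 ± 14.6 to 602 ± 11.2 CPM (log2 0.64 ± 0.04, edgeR adjusted p = 2.8e-14). In wild type 2 rose and 1 fell with MDP, and 0 passed with GM. Without wild-type water replicate 3 these counts were 6 and 2 with MDP and 3 risen with GM. Of all genes, 713 rose and 575 fell with MDP in wild type, or 2662 and 2817 without that library. With GM 94 of all genes rose, or 231. The listed gene that fell with MDP, all libraries included, was Socs3, the feedback inhibitor of IL-6 receptor signalling. It went from 70.3 ± 7.40 to 11.2 ± 0.424 CPM (log2 −2.65 ± 0.12, edgeR adjusted p = 0.00077). In knockout it rose with MDP, from 74.9 ± 6.66 to 141 ± 8.12 CPM (log2 0.91 ± 0.06, edgeR adjusted p = 5.1e-15), and the responses differed by −3.56 ± 0.14 (edgeR adjusted p = 1.9e-07). In wild-type GM Socs3 was at 108 ± 14.4 CPM, above MDP by 3.26 ± 0.12 on the log2 scale (edgeR adjusted p = 0.00013). Il6, a main ligand upstream of STAT3, rose from 0.722 ± 0.198 to 102 ± 41.7 CPM with GM and to 5.14 ± 1.23 with MDP in wild type, and from 3.35 ± 0.367 to 25.9 ± 4.11 with MDP in knockout (edgeR adjusted p 0.0043, 0.0062 and 1.6e-19).

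Stat5a (ENSMUSG00000004043, GRCm39 chromosome 11, 100750177 to 100775995, plus strand) was the 1 member called higher with GM than with MDP in wild type. Its end overlaps that of Stat3 by 72 bases on the opposite strand, and it is a close paralog of Stat5b. Whether the authors' counting used strand, and how it treated reads shared by paralogs, is not stated, so small differences in these genes are uncertain. Wild-type water libraries were at 60.9, 48.9 and 49.1 CPM, GM at 79.2, 93.8 and 74.9 and MDP at 49.2, 56.0 and 45.9. GM lay above all other wild-type libraries, and MDP overlapped water. In knockout every library lay between 45.8 and 57.2 CPM.

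In wild type Stat5a was 1.64-fold higher with GM than with MDP, at 82.6 ± 9.88 against 50.3 ± 5.17 CPM, a log2 difference of 0.71 ± 0.12 (edgeR adjusted p = 0.015). The call was lost without GM replicate 1 (edgeR adjusted p = 0.058) and without MDP replicate 1, 2 or 3 (0.084, 0.053 and 0.083), at log2 differences of 0.65 to 0.80. Against water the GM difference was 0.64 ± 0.14 and did not pass (edgeR adjusted p = 0.22), although DESeq2 (0.020) and the edgeR fit of all 18 libraries (0.00081) called it. In knockout Stat5a was lower with GM than with MDP by 0.21 ± 0.063 on the log2 scale, at 47.3 ± 1.32 against 54.6 ± 2.37 CPM (edgeR adjusted p = 0.015), opposite in direction to wild type, although the difference between genotypes in this contrast was not tested. That call was lost without knockout GM replicate 2 (−0.18, adjusted p = 0.088) or MDP replicate 3 (−0.17, adjusted p = 0.092) and in the fit of all 18 libraries (−0.21, adjusted p = 0.47), all in edgeR. The GM response was larger in wild type than in knockout by 0.71 ± 0.15, short of the threshold (edgeR adjusted p = 0.062). It passed without wild-type water replicate 1 (0.82, adjusted p = 0.025) or replicate 3 (0.66, adjusted p = 0.034) in edgeR. With MDP it differed from water by −0.07 ± 0.13 in wild type and 0.14 ± 0.064 in knockout (edgeR adjusted p 0.76 and 0.13).

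Stat5b (ENSMUSG00000020919, GRCm39 chromosome 11, 100671557 to 100741550, minus strand) passed no test against water. Wild-type water libraries were at 84.9, 85.0 and 138 CPM, so that replicate 3 was the highest of the 18. Wild-type GM gave 111, 104 and 126 CPM and wild-type MDP 92.6, 90.6 and 89.5. GM lay above MDP, and the water libraries spanned both. In knockout Stat5b stayed between 89.4 and 101.6 CPM. GM exceeded MDP in wild type by 0.32 ± 0.093 on the log2 scale (edgeR adjusted p = 0.068), and by 0.38 without GM replicate 2 (0.0087). Between genotypes in water the difference was −0.11 ± 0.20 (edgeR adjusted p = 0.74), and without wild-type water replicate 3 it turned to 0.17 and passed (0.014). Leaving out that library raised the calls among all genes in this comparison from 2258 to 7226, of which 3408 were higher in knockout. Stat5b was the only STAT gene among them. On the FPKM scale Stat5a was 0.277 to 0.700 times Stat5b in every library, highest in wild-type GM replicate 2 and lowest in wild-type water replicate 3.

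Known STAT5 targets differed between genotypes in water, where 6 of 10 were lower in knockout and 1 was higher (median log2 difference −1.33, beside −0.03 over all genes). The counts were 8 lower and 2 higher without wild-type water replicate 3. Among all genes 1282 were lower and 976 higher in knockout water, or 3818 and 3408 without that library. Ccnd2, a D-type cyclin, was at 19.5 ± 2.78 CPM in knockout and 136 ± 87.2 in wild type (log2 −2.80 ± 0.60, edgeR adjusted p = 0.029). Cish, a feedback inhibitor induced by STAT5, was at 20.9 ± 0.752 CPM against 93.3 ± 38.6 (log2 −2.16 ± 0.33, edgeR adjusted p = 0.011). Stromal markers were lower in knockout water as well (8.55 to 11.8 CPM against 85.4 to 370.5 in wild type), and their part in these differences was not tested. With MDP 1 of 10 rose and 2 fell in wild type, and 7 rose and 2 fell in knockout. Without wild-type water replicate 3 the wild-type counts were 2 and 6. Of all genes, 713 rose and 575 fell with MDP in wild type, or 2662 and 2817 without that library. In knockout 1415 of all genes rose and 1548 fell with MDP. Cish fell in wild type to 9.56 ± 0.466 CPM (log2 −3.29 ± 0.35, edgeR adjusted p = 0.0046), while Ccnd2 rose in knockout to 63.4 ± 5.08 CPM (log2 1.71 ± 0.08, edgeR adjusted p = 6.5e-16).

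Stat6 (ENSMUSG00000002147, GRCm39 chromosome 10, 127478855 to 127496826, plus strand) was the steadiest member. Its lowest library had 275 CPM and its highest 329 CPM, both in wild-type water, where the 3 libraries were at 275, 281 and 329. Group means ran from 287 ± 10.3 CPM in knockout water to 311 ± 14.7 CPM in wild-type GM. No comparison passed the test. Against water the 95% intervals of its log2 difference were −0.22 to 0.37 for GM and −0.27 to 0.22 for MDP in wild type. In knockout they were narrower, at −0.03 to 0.14 for GM and −0.05 to 0.14 for MDP. Its annotated end overlaps that of Nab2 by 40 bases on the opposite strand.

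Genes that STAT6 is known to control moved in both directions. With MDP 3 of 18 rose and 2 fell in wild type, or 8 and 9 without wild-type water replicate 3, and 7 rose and 6 fell in knockout. Among all genes 713 rose and 575 fell with MDP in wild type, or 2662 and 2817 without that library. In knockout 1415 of all genes rose with MDP and 1548 fell. Arg1, the arginase of alternatively activated macrophages, rose with MDP in knockout from 2.93 ± 0.841 to 32.7 ± 13.7 CPM (log2 3.50 ± 0.53, edgeR adjusted p = 0.015). Ccl22, a chemokine that draws T cells, rose with MDP in knockout from 340.4 ± 31.8 to 1258 ± 166 CPM (log2 1.89 ± 0.13, edgeR adjusted p = 0.00076). It also rose with GM in wild type, from 353 ± 85.2 to 1412 ± 435 CPM (log2 2.00 ± 0.29, edgeR adjusted p = 0.049). With GM in knockout 2 rose and 6 fell, among them Mrc1, the mannose receptor, from 418 ± 12.0 to 308 ± 9.68 CPM (log2 −0.44 ± 0.04, edgeR adjusted p = 4.6e-10). Of all genes, 558 rose and 654 fell in that comparison.

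Of the Janus kinases, which phosphorylate the STAT proteins, Jak2 and Jak3 passed at least 1 test. Jak2 rose with MDP in knockout from 179.96 ± 8.90 to 348 ± 31.3 CPM (log2 0.95, edgeR adjusted p = 2.7e-13) and with GM to 204 ± 1.56 CPM (log2 0.18, 0.0043). In wild type Jak2 was at 191 ± 83.0 CPM in water, 353 ± 113 in GM and 354 ± 19.0 in MDP, with no call (edgeR adjusted p 0.85 and 0.15). Jak3, which signals through the common gamma chain, rose with MDP in knockout (19.4 ± 2.37 to 24.2 ± 1.62 CPM, log2 0.33, edgeR adjusted p = 0.011). In wild type Jak3 was at 9.72 ± 4.58 CPM in water and 24.6 ± 0.741 in MDP, a log2 difference of 1.34 ± 0.36 that did not pass (edgeR adjusted p = 0.071). It was lower with GM than with MDP there, at 14.1 ± 4.19 against 24.6 ± 0.741 CPM (log2 −0.80, edgeR adjusted p = 0.044). Jak1 and Tyk2 passed in none of the 9 comparisons with all libraries. Wild-type water replicate 3 lay apart in these genes too, with Jak2 at 95.7 CPM against 249.6 and 227 in replicates 1 and 2. Without it Jak1, Jak2 and Jak3 rose with MDP in wild type, by 0.21, 0.57 and 1.00 on the log2 scale (edgeR adjusted p 0.0075, 5.7e-07 and 1.4e-06), Jak1 having been at −0.08 with it. Without it, also, Jak3 was higher in knockout than in wild-type water (log2 0.65, edgeR adjusted p = 5.1e-05). Jak1, Jak2 and Tyk2 were lower in knockout water (log2 −0.19, −0.40 and −0.43, edgeR adjusted p 0.0012, 2.7e-08 and 3.7e-08). That fit called 3408 of all genes higher in knockout and 3818 lower. Among 14 receptor chains of the common gamma and beta families, 2 rose with MDP in wild type, among them Il15ra (4.05 ± 0.205 to 13.0 ± 1.14 CPM, log2 1.68, edgeR adjusted p = 0.0031), and 0 fell. The counts were 5 and 5 without wild-type water replicate 3. In knockout 4 rose and 2 fell. Of 19 inhibitors, 1 rose and 3 fell with MDP in wild type (1 and 4 without wild-type water replicate 3), and 5 rose and 2 fell in knockout. Beside both lists, 713 of all genes rose and 575 fell with MDP in wild type, or 2662 and 2817 without replicate 3. In knockout 1415 rose and 1548 fell. Socs1, an inhibitor of Janus kinases, was at 54.0 ± 12.7 CPM in wild-type GM against 12.9 ± 0.753 in wild-type MDP (log2 2.06 ± 0.18, edgeR adjusted p = 0.0017).

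The genes whose levels ran most like each member over the 18 libraries were found by Pearson's r of log2 CPM among 9746 other named genes, as a description only, since the libraries share treatments and genotypes. For Stat4 they were Ccr7 (r = 0.985), Helz2 (0.984) and Traf1 (0.978). For Stat2 they were Psmb8 (0.969), a subunit of the immunoproteasome, Parp14 (0.962) and Irgm2 (0.958), an interferon-induced GTPase. For Stat3 they were Cep85l (0.959), Serpinb9 (0.947) and Nfil3 (0.943), the last a gene of the IL-10 and STAT3 list. The likeness was weakest for Stat5a, with Cd80 (0.847), a co-stimulatory ligand, Trim30c (0.843) and Gbp5 (0.839). For Stat5b the first were Ppfibp2 (0.944) and Tmem62 (0.943), and for Stat6 they were Ptgr1 (0.915), Ostf1 (0.907) and Slc3a2 (0.902). Between members, Stat2 and Stat4 ran most alike (r = 0.884), followed by Stat5b and Stat6 (0.832) and by Stat3 and Stat4 (0.780). The lowest r was that of Stat2 and Stat5b (−0.424). The high r of Stat5b and Stat6 includes wild-type water replicate 3, the highest library for both. The r of Stat2 and Stat5b includes it too, as the lowest library for Stat2 and the highest for Stat5b.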

How the data were processed

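RNA was sequenced from 18 libraries in 6 groups of 3. Per the labels' protocols the libraries were poly(A)-enriched and directional. Per the submitters' processing notes, HISAT2 2.0.5 and featureCounts 1.5.0-p3 were used with build GRCm39. Settings, strand use and annotation release are not given in the sources used here. The deposited tables hold the authors' raw read counts per gene and the authors' FPKM values (counts scaled to gene length and library size), the latter used only to compare levels between genes. Gene positions are those of the count table.

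The analysis of counts used edgeR 4.0.16 in R 4.3.3, with filterByExpr (minimum count 10) and TMM factors over all 18 libraries (0.877 to 1.06), then a robust quasi-likelihood fit of only the libraries compared (6, or 12 for differences between genotypes), because spreads were unequal. Tests were 2-sided, with Benjamini-Hochberg adjustment over 15450 genes. CPM are on the TMM scale, errors of levels are SD, and errors of fold changes are SE. Alternatives were 1 fit of 18 libraries, limma-voom (limma 3.58.1) with a spread for each group, DESeq2 1.42.0, RLE size factors, no filter, a replicate block and leaving out each library. The fitting code was tested on simulated data. Values of the lists, their named genes and the members' ranges without wild-type water replicate 3 were added after seeing the data. The members, gene lists, markers and the choice of fit were made with earlier results of these data known. Named list genes are at most 3 per list and comparison, those called with the largest fold change and a mean of at least 1 CPM, plus the Janus kinases and Irf9. Likeness used genes with a mean of at least 5 CPM. It names 3 genes a member, of which 1 for Stat5b is not reported here. Every replicate pair differed by more than counting noise.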

Additional observations from a re-analysis of the deposited data

Results flagged for a closer look

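The response of Stat4 to MDP differed between the genotypes by a test of the difference itself: the log2 fold change in wild type exceeded that in knockout by 1.99 ± 0.47 (SE, edgeR adjusted p = 0.026). Stat4 went from 7.31 to 67.2 CPM in wild type and from 9.53 to 22.0 CPM in knockout, and MDP was above water in 3 of 3 libraries in each. MDP and water did not overlap for 37.2% of all genes in wild type and 32.8% in knockout. Where a library was left out the difference was between 1.61 and 2.36, and it no longer passed in 7 of the 12 such fits (edgeR adjusted p 0.053 to 0.069). With no filter on low counts it did not pass (edgeR adjusted p = 0.11). The 7 dendritic cell markers summed to 90.9 to 199 CPM with water and 725 to 802 with MDP in wild type, and to 130.4 to 153 and 316 to 418 in knockout. Most of each sum was Ccr7. The other 6 together gave 27.5 to 64.0 CPM with water and 50.2 to 59.6 with MDP in wild type, which overlap. In knockout they gave 16.8 to 17.6 CPM with water and 18.9 to 23.0 with MDP. The part of these markers was not tested.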

How the results depend on the processing

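Of 720 recomputed results for the 6 STAT genes over the 9 comparisons, 636 kept their direction and their side of the threshold, 27 newly passed, 34 no longer passed and 23 changed sign. STAT genes called: with all 18 libraries in 1 fit, 3 for GM in wild type (0 in the main analysis), 1 for GM against MDP in wild type (2), 1 for GM against MDP in knockout (4) and 2 for the GM difference between genotypes (0). limma-voom with a spread for each group called 1 for GM in wild type and 1 for the GM difference, and DESeq2 called 2 and 2. RLE size factors left 1 for MDP in wild type (2). No filter on low counts gave 1 for MDP in wild type, 1 for knockout cells given GM (0) and 0 for the MDP difference (1). Genes called among all tested: for GM in wild type 94 in the main analysis, 729 with 18 libraries, 173 with limma-voom and 356 with DESeq2; for MDP in wild type 1288, 3810 with 18 libraries and 2457 with DESeq2. For GM against MDP in wild type the counts were 1544, 3001, 2626 with limma-voom and 2618 with DESeq2. Knockout cells given GM had 1212, 3 with 18 libraries and 569 with limma-voom, for MDP in knockout 2963 and 427 with 18 libraries, and for GM against MDP in knockout 2532 and 242 with 18 libraries. For knockout against wild type in water they were 2258, 5110 with 18 libraries and 3593 with DESeq2, for the GM difference 145, 287 with 18 libraries and 317 with DESeq2, and for the MDP difference 1232 and 1962 with DESeq2. The cause of these shifts was not tested. With no filter, Stat6 in GM against MDP in knockout turned from 0.01 to −0.0078 (log2, not called).

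Same-numbered libraries did not deviate together in every pair of any comparison (correlations −0.24 to 0.82 for GM against water in wild type), so the numbers were not taken to pair samples. With a replicate block, STAT genes called were 1 for MDP in wild type (Stat2 lost, edgeR adjusted p = 0.079) and 1 for the GM difference (Stat2, log2 0.94, 0.036). Under the replicate block, genes called among all were 166 for GM in wild type, 387 for MDP in wild type, 855 for knockout against wild type in water and 585 for the MDP difference.

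Leaving out each library in turn gave these ranges of STAT genes called and of all genes called: 0 to 1 and 0 to 288 for GM in wild type, 0 to 3 and 187 to 5479 for MDP in wild type, 0 to 4 and 209 to 4478 for GM against MDP in wild type, 0 to 1 and 830 to 1235 for knockout cells given GM, 3 to 3 and 2381 to 2963 for MDP in knockout, 3 to 4 and 1805 to 2402 for GM against MDP in knockout, 0 to 1 and 329 to 7226 for knockout against wild type in water, 0 to 3 and 71 to 557 for the GM difference and 0 to 1 and 647 to 4044 for the MDP difference. The log2 values that changed sign ranged, for MDP in wild type, from −0.16 to 0.039 (Stat5a), −0.29 to 0.097 (Stat5b) and −0.073 to 0.062 (Stat6), and for Stat3 from −0.055 to 0.0055 in GM against MDP in wild type and −0.040 to 0.019 with GM in knockout. They ranged from −0.050 to 0.015 for Stat5b with MDP in knockout and from −0.0045 to 0.029 for Stat6 in GM against MDP in knockout. In water between genotypes they were −0.058 to 0.40 (Stat2), −0.15 to 0.018 (Stat5a), −0.23 to 0.17 (Stat5b) and −0.088 to 0.047 (Stat6). For the GM difference they were −0.034 to 0.36 (Stat5b) and −0.026 to 0.11 (Stat6), and for the MDP difference −0.0047 to 0.18 (Stat3), −0.27 to 0.12 (Stat5b) and −0.12 to 0.016 (Stat6). Of these only Stat5b in water passed, without wild-type water replicate 3. Where an arm was left with 2 libraries the fit assumed that they vary like the rest. Depth gave Stat4 as few as 56 counts in a library, whereas the lowest library of any other member held 709.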
